A study of Mus musculus with 2 samples.

Results

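Conventional CD4 T cells are the helper T cells that lack the regulatory programme, and in these MC38 tumours they were rare. They numbered 88 of 4495 kept cells, 69 of 3321 in the anti-PD-1 library and 19 of 1174 in the control library. A cell was a member when its barcode held at least 1000 UMIs (unique molecular identifiers, each counting 1 captured transcript), at most 10% of them mitochondrial. It also had to hold at least 1 UMI of Cd3d, Cd3e or Cd3g, at least 1 of Cd4 or Cd40lg, and none of Foxp3, Ikzf2, Il2ra, Cd8a or Cd8b1. Fewer than 3 UMIs of Lyz2 and Csf1r together and fewer than 3 of the cell cycle genes Top2a, Birc5, Ube2c, Ccnb2 and Mki67 together were allowed. Those transcript counts chose the members, so the levels of these genes are given as a description only.

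The study profiled viable CD45+ (immune) cells sorted from tumours of MC38, a mouse colon carcinoma line, by droplet 3' single-cell RNA sequencing. C57BL/6J mice carried tumours at 4 intradermal sites for 7 days, and tumours were taken on day 10. In the anti-PD-1 group the tumours were injected daily with 200 µg anti-PD-1 per mouse, and in the control group with a control. There was 1 library per treatment, and how many mice went into it is not stated in the sources used here. Between single libraries no test between treatments is possible, and every interval on a ratio, level or share below covers counting error only.

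Conventional CD4 T cells recognise peptides on MHC class II and act through cytokines and through CD40 ligand, which signals to dendritic cells, macrophages and B cells. Helper states are named after their leading cytokine: interferon gamma for Th1, interleukin 4 and 13 for Th2, interleukin 17 for Th17. PD-1, encoded by Pdcd1, is an inhibitory receptor that activated T cells put on their surface. Foxp3-positive regulatory T cells, the other large CD4 lineage of tumours, carry high levels of costimulatory receptors and restrain helper cells.

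Conventional CD4 cells made up 2.08% of kept anti-PD-1 cells (95% exact binomial interval 1.62 to 2.62) and 1.62% of kept control cells (0.977 to 2.52). Of CD3-positive cells they were 3.77% (2.95 to 4.75) in the anti-PD-1 library and 5.04% (3.06 to 7.76) in the control library. All these intervals overlap between libraries, so no difference in share was detectable at this depth. The 2 T-cell classes used for comparison were Foxp3-positive cells, 158 anti-PD-1 and 78 control, and CD8 cells, 983 anti-PD-1 and 62 control. Foxp3-positive cells held at least 1 Foxp3 UMI and no Cd8a or Cd8b1, CD8 cells held at least 1 UMI of Cd8a or Cd8b1 and none of Cd4, Cd40lg or Foxp3, and both met the same limits on CD3, myeloid and cell cycle transcripts. Conventional CD4 cells had a median of 2233 UMIs in the anti-PD-1 and 2963 in the control library, and their UMIs summed to 170794 and 57012 in these libraries. The 2 libraries shared 4 barcodes among kept cells and 0 among conventional CD4 cells.

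The gate rested on few transcripts per cell. Cd4 without Cd40lg admitted 44 of 69 anti-PD-1 and 12 of 19 control cells, Cd40lg without Cd4 admitted 12 and 3, and both genes were present in 13 and 4. Exactly 1 UMI of the pair, the lowest value that admits a cell, was all that 40 of 69 anti-PD-1 and 11 of 19 control members held. Just outside the gate, 189 anti-PD-1 and 65 control cells met every other condition with Cd4 and Cd40lg at 0. Some of those cells carried the natural killer transcript Ncr1, 52 of 189 in the anti-PD-1 and 20 of 65 in the control library. Its level was 224 CPM (UMIs of a gene per 1000000 UMIs of the summed cells) in the anti-PD-1 and 184 CPM in the control library, where Ncr1 was at 0 in the members of both libraries. The same cells also held T-cell transcripts, with Icos in 75 anti-PD-1 and 20 control cells and Cxcr6 in 64 and 13. On the other side, 18 anti-PD-1 and 10 control cells were left out for 1 UMI of Foxp3, Ikzf2 or Il2ra. Among Foxp3-positive cells, 48 of 158 (30.4%) in the anti-PD-1 and 40 of 78 (51.3%) in the control library held a Cd4 or Cd40lg UMI, so the gate leaves out CD4 cells in which neither was captured. Of the Foxp3-positive cells, 1 of 158 and 1 of 78 had Ikzf2 and Il2ra both at 0. Macrophages with a Cd4 or Cd40lg UMI numbered 1 of 161 in the anti-PD-1 and 0 of 156 in the control library.

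Markers of other cell types were low but not absent in the members. The 12 macrophage genes summed to 170 CPM in anti-PD-1 and 246 CPM in control members, with Csf1r, Ms4a7, Fcgr1 and Adgre1 at 0 in both. Only 10 of these 12 lie outside the gate, which limits Lyz2 and Csf1r, so the sum and the 0 of Csf1r are partly set by it. The 11 dendritic-cell genes summed to 105 and 351 CPM, with Flt3 and Xcr1 at 0 in both. The natural killer list differed more, with 88 UMIs (515 CPM) in anti-PD-1 and 4 UMIs (70.2 CPM) in control members. Of the anti-PD-1 UMIs, 34 were Gzma, 24 of them in 1 cell, and Ncr1 and Eomes were at 0. Neutrophil genes gave 59 UMIs in anti-PD-1 members and 1 in control members, and 35 of the 42 S100a8 UMIs sat in 1 cell. B-cell genes were at 0 in both libraries. Free RNA, estimated from macrophage genes, accounted for 2.94% of the UMIs of anti-PD-1 and 2.55% of those of control members. The constant-region genes of gamma-delta T cells were not analysed here, and the other 2 genes of that list, Sox13 and Cd163l1, were at 0.

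Of the 5 marker genes tied to the label, Cd4 and Cd40lg belong to the gate. Cd4 (chr6:124864692-124888221, minus strand, GRCm38), the MHC class II co-receptor, had 77 UMIs in 57 anti-PD-1 cells and 24 UMIs in 16 control cells. Cd40lg (chrX:57212143-57224042, plus strand), which encodes CD40 ligand, had 31 UMIs in 25 anti-PD-1 and 8 UMIs in 7 control cells. Cxcr6, Tnfsf11 and Csf2 were not used by the gate. Cxcr6 (chr9:123806475-123811760, plus strand) encodes the receptor for the chemokine CXCL16 and is carried by T cells resident in tissues. It was detected in 58 of 69 anti-PD-1 and 13 of 19 control cells. Tnfsf11 (chr14:78277445-78308043, minus strand) encodes RANKL, the ligand of the receptor RANK on dendritic cells and osteoclast precursors, and was detected in 10 of 69 anti-PD-1 and 7 of 19 control cells. Csf2 (chr11:54247271-54249667, minus strand), encoding the myeloid growth factor GM-CSF, had only 6 UMIs in 2 anti-PD-1 cells and 1 UMI in 1 control cell. Foxp3-positive cells held 0 Csf2 UMIs in either library, and CD8 cells held 2 in the anti-PD-1 and 0 in the control library. Since the 5 markers were put forward with earlier results of these data known, their levels describe the class and do not support its name.

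Helper cytokines were thinly spread over the cells. Of 16 cytokines, at least 1 was detected in 32 of 69 anti-PD-1 cells (46.4%, 34.3 to 58.8) and in 12 of 19 control cells (63.2%, 38.4 to 83.7), and the intervals overlap. Il3, Il5, Il9, Il21 and Il22 were at 0 in both libraries, which by the limit of 3 counts allows up to 4.35% of anti-PD-1 and 15.8% of control cells with a UMI (upper ends of the exact binomial 95% intervals 5.21% and 17.6%). Ifng and Tnfsf11 were the 2 cytokines found in the most cells.

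**Figure D1:**
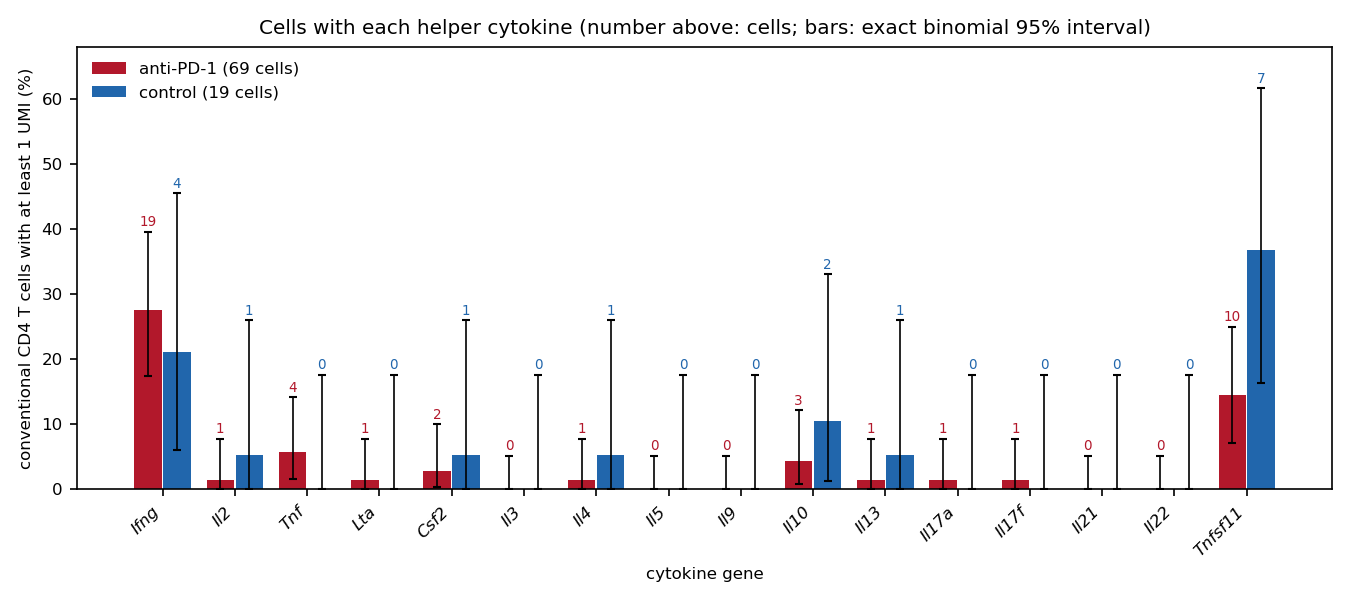
Percent of conventional CD4 T cells with at least 1 UMI of each of 16 helper cytokine genes, for 69 anti-PD-1 cells (left bars) and 19 control cells (right bars), with exact binomial 95% intervals and the number of cells above each bar. Ifng was in 19 anti-PD-1 and 4 control cells and Tnfsf11 in 10 anti-PD-1 and 7 control cells, while 5 of the genes were in none.

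Ifng (chr10:118441046-118445892, plus strand), the interferon gamma gene, had 50 UMIs in 19 anti-PD-1 cells (293 CPM, 95% Poisson interval 217 to 386) and 7 UMIs in 4 control cells (123 CPM, 49.4 to 253). The share of cells with a UMI was 27.5% in the anti-PD-1 and 21.1% in the control library, and 21.7% and 10.5% after each cell was thinned to 1000 UMIs. In macrophages, which should lack the gene, 3.11% of anti-PD-1 and 0.641% of control cells held an Ifng UMI at median depths of 5728 and 5662 UMIs. The Ifng UMIs were uneven: 1 anti-PD-1 cell held 14 of the 50, and the same cell carried 3 Tnf and 3 Csf2 UMIs.

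Tnfsf11 ran the other way between libraries, at 12 UMIs in the anti-PD-1 cells (70.3 CPM, 36.3 to 123) and 13 UMIs in the control cells (228 CPM, 121 to 390). No cell of either library held more than 3 of its UMIs, so no single cell carries the value. Its share of cells was 14.5% in the anti-PD-1 and 36.8% in the control library, or 7.25% and 26.3% after thinning, and no macrophage held a UMI of it. Ifng and Tnfsf11 were found together in 3 anti-PD-1 cells and 1 control cell.

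Other cytokines came from few cells. The 33 Il17a and 18 Il17f UMIs of the anti-PD-1 library all sat in 1 cell of 3112 UMIs, which also held 12 UMIs of Cxcr6 and 5 of Pdcd1. The control library had 0 UMIs of both interleukin 17 genes. Of the 28 Il10 UMIs in anti-PD-1 members, 22 sat in 1 cell. In the control library 1 cell held 2 Il4, 2 Il13 and 4 Il10 UMIs, with 0 of Gata3, the Th2 transcription factor. That cell also held 1 UMI of Tbx21, which encodes the Th1 transcription factor T-bet. In the anti-PD-1 library 1 cell held 2 Il4 and 2 Gata3 UMIs. Another anti-PD-1 cell held 1 Il13 and 1 Tbx21 UMI, with 0 of Gata3. Il2, the T-cell growth factor, gave 1 UMI in each library, and Tnf gave 7 UMIs in 4 anti-PD-1 cells and 0 in control cells.

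Members that held a Cd40lg UMI differed from those admitted by Cd4 alone. In the anti-PD-1 library the 25 cells with Cd40lg had Ifng at 657 CPM, against 114 CPM in the 44 cells without it (log2 ratio 2.53, 1.59 to 3.57). Of the 37 Ifng UMIs in the cells with Cd40lg, 14 came from the 1 cell named above. In the control library the corresponding Ifng levels were 138 CPM in 7 cells and 114 CPM in 12 cells, a log2 ratio of 0.28 (-2.49 to 2.84). Tnfrsf4, which encodes the costimulatory receptor OX40, went the opposite way. It was at 551 CPM in cells with Cd40lg against 1537 CPM in cells without in the anti-PD-1 library, and at 642 against 1590 CPM in the control library. The log2 ratios were -1.48 (-2.08 to -0.92) in the anti-PD-1 and -1.31 (-2.27 to -0.44) in the control library, so the direction was the same in both. These are cells of the same library, chosen by a gate gene, and their differences are given with no test.

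The first class comparison set conventional CD4 cells against Foxp3-positive cells of the same tumours. UMIs were summed per class and library and tested with edgeR's quasi-likelihood test over 6 sums (3 classes in 2 libraries), with the library as a block. The 2 libraries serve as replicates and also differ in treatment, which leaves 2 residual degrees of freedom. Of 3168 genes outside the gates, 107 (3.38%) were higher and 114 (3.6%) were lower in conventional CD4 cells at an edgeR adjusted p under 0.05. These counts fell to 52 higher and 43 lower under DESeq2. Genes whose transcripts travel with Foxp3, Ikzf2 or Il2ra are not independent of the gate.

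Cxcr6 was at 1663 CPM in anti-PD-1 and 1210 CPM in control conventional CD4 cells, against 184 and 138 CPM in the Foxp3-positive cells of these libraries. The counting intervals of the classes did not overlap in either library. The edgeR log2 ratio was 3.23 with an adjusted p of 1.13e-10. Tnfsf11, at the levels given above, had 1 UMI in anti-PD-1 and 2 UMIs in control Foxp3-positive cells (edgeR log2 4.75, adjusted p 0.000247). Ifng was at 17.4 CPM in anti-PD-1 and 20.9 CPM in control Foxp3-positive cells, and conventional CD4 cells stood above them by 3.77 on the log2 scale (edgeR adjusted p 1.51e-06). Pdcd1 (chr1:94038305-94052553, minus strand) was at 357 CPM in anti-PD-1 and 175 CPM in control conventional CD4 cells, against 86.9 and 83.7 CPM in Foxp3-positive cells (edgeR log2 1.85, adjusted p 0.000385). Within libraries its log2 ratio was 2.04 (1.42 to 2.68) in the anti-PD-1 and 1.07 (-0.19 to 2.23) in the control library.

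**Figure D2:**
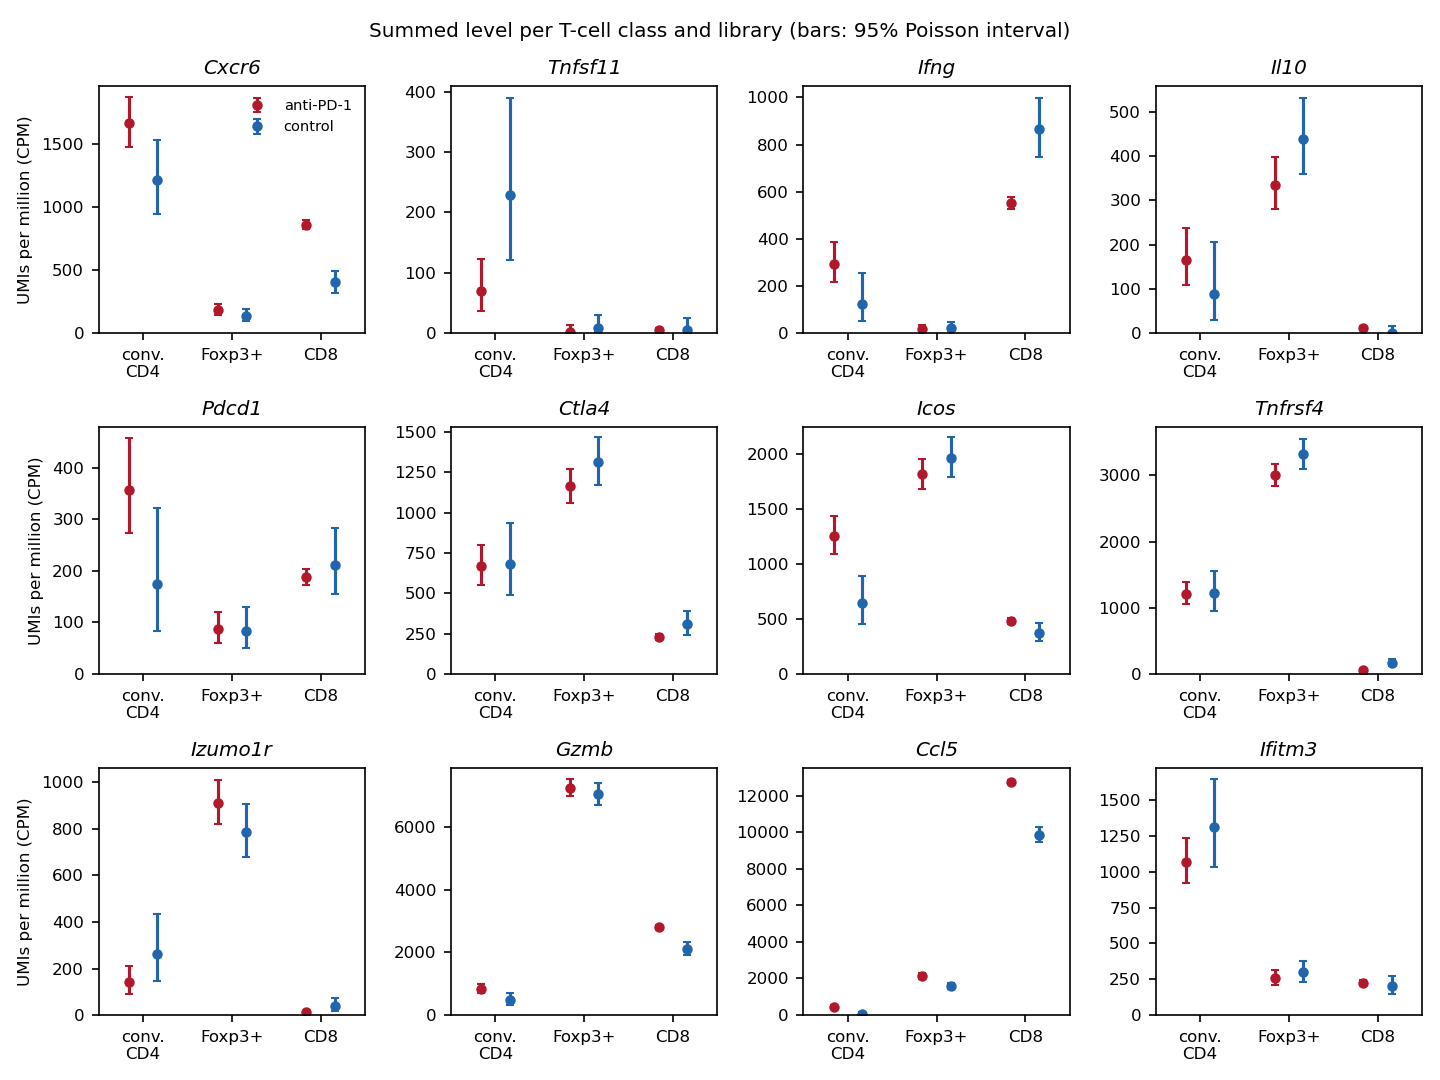
Summed level (CPM, from 0) of 12 genes in conventional CD4, Foxp3-positive and CD8 T cells, with the anti-PD-1 library left of the control library in each class and 95% Poisson intervals. Cxcr6 and Ifitm3 stand highest in conventional CD4 cells in both libraries, Gzmb, Icos and Tnfrsf4 in Foxp3-positive cells and Ccl5 in CD8 cells.

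Bhlhe40, a transcription factor that activated T cells need to make cytokines, was at 492 CPM in anti-PD-1 and 544 CPM in control conventional CD4 cells, against 69.5 and 83.7 CPM in Foxp3-positive cells (edgeR log2 2.83, adjusted p 4.53e-08). Fasl, the death ligand, was at 176 and 228 CPM against 29.8 and 46.0 CPM (edgeR log2 2.46, adjusted p 0.000203). Themis, a regulator of T-cell receptor signalling, was higher by 2.68 on the log2 scale (adjusted p 0.000716). Klrc1, encoding the natural killer receptor subunit NKG2A, was higher by 3.39 (adjusted p 3.68e-07), Ms4a4c by 3.98 (6.83e-08) and Ramp3, a receptor activity modifying protein, by 3.80 (0.000261). Hspa1a, an inducible heat shock gene with the near-identical copy Hspa1b, was higher by 5.69 (1.56e-07). Its UMIs came from few cells, 19 UMIs in 4 anti-PD-1 cells and 56 UMIs in 2 control cells.

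The genes lower than in Foxp3-positive cells began with Gzmb, the granzyme B gene. It was at 826 CPM in anti-PD-1 and 474 CPM in control conventional CD4 cells, against 7251 and 7044 CPM in Foxp3-positive cells (edgeR log2 -3.35, adjusted p 1.22e-11). It was detected in 30 of 69 anti-PD-1 and 5 of 19 control conventional CD4 cells, against 151 of 158 and 76 of 78 Foxp3-positive cells. Ccl5, a chemokine of effector lymphocytes, was at 416 and 52.6 CPM against 2131 and 1585 CPM (edgeR log2 -2.69, adjusted p 1.76e-07). Klrg1, a receptor of terminal effector and tissue regulatory T cells, had 5 UMIs in anti-PD-1 and 0 in control members (edgeR log2 -4.18, adjusted p 3.63e-06). Glrx, the glutaredoxin gene, was lower by 2.01 on the log2 scale (edgeR log2 -2.01, adjusted p 1.36e-06). The 7 other named genes, Tspan32, Gimap7, Sv2c, Arl5a, Cmtm7, Ubl3 and Tnfrsf9, had edgeR log2 ratios between -3.62 (Arl5a) and -2.03 (Ubl3). Areg, encoding the growth factor amphiregulin, had 33 UMIs in 7 anti-PD-1 members and 0 in control members, against 297 and 132 UMIs in Foxp3-positive cells (edgeR log2 -2.21, adjusted p 0.00142). Against only those Foxp3-positive cells that also held Cd4 or Cd40lg, a comparison chosen after seeing the data, its log2 ratio was -0.68 and did not pass the test, nor did DESeq2 call it.

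Of 21 regulatory T-cell genes outside the gate, 15 were tested against Foxp3-positive cells, and 11 were lower and 1 higher, with a median log2 of -2.18 beside -0.0025 over all genes. Over all genes 3.6% were called lower and 3.38% higher. Lrrc32, which encodes the latent TGF-beta receptor GARP, was at 0 in members of both libraries, against 45 UMIs in anti-PD-1 and 24 in control Foxp3-positive cells. The member that was higher was Nrp1, at 64.4 and 105 CPM against 12.4 and 16.7 CPM (edgeR log2 2.64, adjusted p 0.0197). Because the gate removes cells with Foxp3, Ikzf2 or Il2ra, these counts describe the gate and are no evidence for it.

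Conventional CD4 cells did not lack the receptors that mark regulatory cells: they held an intermediate level. Tnfrsf4 was at 1212 CPM in anti-PD-1 and 1228 CPM in control conventional CD4 cells, against 3005 and 3317 CPM in Foxp3-positive cells and 65.6 and 166 CPM in CD8 cells. Both differences passed the edgeR test, at log2 -1.27 (adjusted p 0.000367) against Foxp3-positive and 3.62 (1.11e-10) against CD8 cells. Icos, encoding the costimulatory receptor ICOS, was at 1259 and 649 CPM, against 1818 and 1970 CPM in Foxp3-positive and 482 and 373 CPM in CD8 cells. Its edgeR log2 ratios were -0.89 (adjusted p 0.0096) and 1.07 (0.00327). Ctla4, the inhibitory receptor of the CD28 family, was at 668 and 684 CPM, against 1162 and 1313 CPM in Foxp3-positive and 228 and 309 CPM in CD8 cells. Its ratios were -0.78 (adjusted p 0.0197) and 1.26 (0.000454), and the first of these no longer passed the test when cells were required to hold a Cd4 UMI (log2 -0.75), with a lower UMI minimum per cell (-0.64), with no library term (-0.81) or under DESeq2 (-0.78). The difference of Icos from Foxp3-positive cells was lost with a Cd4 UMI required (-0.84) and with no library term (-0.87).

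The same order held for Tnfrsf18, Izumo1r and Maf. Tnfrsf18, encoding the costimulatory receptor GITR, was at 802 CPM in anti-PD-1 and 684 CPM in control conventional CD4 cells, against 2069 and 1941 CPM in Foxp3-positive and 232 and 336 CPM in CD8 cells. Izumo1r, encoding folate receptor 4, was at 141 and 263 CPM, against 914 and 786 CPM in Foxp3-positive and 13.7 and 36.8 CPM in CD8 cells. Few members carried Izumo1r: 2 of 25 anti-PD-1 cells with Cd40lg and 7 of 44 without, and 2 of 7 and 4 of 12 control cells. Maf, a transcription factor that drives Il10 and Il4 in T cells, was at 263 and 228 CPM, against 531 and 837 CPM in Foxp3-positive and 13.4 and 32.2 CPM in CD8 cells. All 6 of these differences passed the edgeR test, with adjusted p between 1.02e-08 (Maf against CD8) and 0.00248 (Maf against Foxp3-positive). Tnfrsf9, encoding 4-1BB, was lower than in Foxp3-positive cells by 2.30 on the log2 scale (edgeR log2 -2.30, adjusted p 4.17e-07) and stood at 0.58 against CD8 cells (0.398). Tigit was at 0 in members of both libraries.

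In list form, 12 of 14 costimulatory receptors were tested. Against Foxp3-positive cells 1 was higher and 7 were lower (median log2 -0.90), and against CD8 cells 6 were higher and 1 was lower (median 0.85). Over all genes 3.38% were called higher and 3.6% lower against Foxp3-positive cells (median log2 -0.0025). Against CD8 cells the shares over all genes were 2.3% higher and 1.2% lower (median 0.0054). Of 15 inhibitory receptors, 9 were tested, with 2 higher and 3 lower against Foxp3-positive cells (median 0.029) and 2 higher and 1 lower against CD8 cells (median 0.46). Pdcd1 was at 188 CPM in anti-PD-1 and 212 CPM in control CD8 cells, and its ratio of conventional CD4 to CD8 cells did not pass the test (edgeR log2 0.46, adjusted p 0.544). Within libraries that log2 ratio was 0.93 (0.52 to 1.31) in the anti-PD-1 and -0.27 (-1.42 to 0.73) in the control library.

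The second class comparison set conventional CD4 cells against CD8 cells. By the same edgeR test, 73 of 3168 genes (2.3%) were higher and 38 (1.2%) were lower in conventional CD4 cells, and DESeq2 called 31 and 16. List counts cover the members that passed the filter on low counts, which a gene can pass through any 1 class. All 16 tested genes of the cytotoxic list had log2 ratios below 0 and 11 passed the test, with a median of -1.91 beside 0.0054 over all genes. Against Foxp3-positive cells the same list was divided, with 7 genes higher (Gzmk, Ctsw, Klrd1, Klrc1, Fasl, Serpinb9 and Serpinb6b) and 3 lower (Gzmb, Gzmc and Ccl5). Over all genes 3.38% were higher and 3.6% lower in that comparison.

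Ccl5 showed the widest gap, at 416 CPM in anti-PD-1 and 52.6 CPM in control conventional CD4 cells, against 12738 and 9868 CPM in CD8 cells (edgeR log2 -5.52, adjusted p 1.12e-13). Ly6c2, a surface antigen of effector and memory CD8 cells, was at 404 and 211 CPM against 3623 and 1515 CPM (log2 -3.17, adjusted p 1.00e-10). Gzmb was lower than in CD8 cells by 2.02 on the log2 scale (edgeR log2 -2.02, adjusted p 1.57e-07), Gzma, encoding granzyme A, by 3.11 (log2 -3.11, 1.19e-07), and Klrk1, encoding the activating receptor NKG2D, by 2.83 (log2 -2.83, 3.11e-05). Cd160, an inhibitory receptor of cytotoxic cells, was at 0 UMIs in anti-PD-1 and 2 UMIs in control members (log2 -3.81, adjusted p 0.000998). The chemokine genes Ccl3 (log2 -3.51), Ccl4 (-2.71) and Xcl1 (-3.76) were lower too. In the control CD8 sum the highest single cell held 374 of 427 Ccl3 UMIs, 947 of 1071 Ccl4 UMIs and 69 of 84 Xcl1 UMIs. Leaving out cells with any Lyz2 or Csf1r UMI removed the call for Ccl3 (log2 -1.35) and Ccl4 (-1.16). Cd74, the MHC class II invariant chain, was lower by the main test (log2 -2.43, adjusted p 0.012), but 83 of its 88 control CD8 UMIs sat in 1 cell, and the log2 ratio was 0.67 without cells holding Lyz2 or Csf1r. Klre1 (-2.26) and Cd7 (-2.12) had adjusted p of 0.0453 and 0.0182 and rested on 6 and 8 UMIs in anti-PD-1 members and 0 in control members. DESeq2 did not call Ccl3, Ccl4, Klrk1, Cd160, Klre1 or Cd7.

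Ifng was lower than in CD8 cells, where it was at 551 CPM in the anti-PD-1 and 866 CPM in the control library (edgeR log2 -1.59, adjusted p 0.000567). In the control CD8 sum 1 cell held 162 of the 188 UMIs. Without the cell highest for the gene in each class sum, an alternative chosen after seeing the data, the log2 ratio was -0.94 and did not pass the test. Nor did it pass without cells holding Lyz2 or Csf1r (-0.45), with Il2ra allowed (-0.81) or after thinning (-1.01). The shares of cells with a UMI were 27.5% and 21.1% of conventional CD4 cells, against 27.6% and 25.8% of CD8 cells. Il10 was at 164 and 87.7 CPM in conventional CD4 cells, against 335 and 439 CPM in Foxp3-positive and 10.4 and 0 CPM in CD8 cells. Its log2 ratio to CD8 cells was 3.78 (edgeR adjusted p 2.2e-06), and 2.29 without the highest cells, which did not pass. Its ratio to Foxp3-positive cells was -1.37 (edgeR adjusted p 0.0111), which DESeq2 did not call, and 3 of 69 and 2 of 19 conventional CD4 cells held a UMI, against 58 of 158 and 35 of 78 Foxp3-positive cells.

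**Figure D3:**
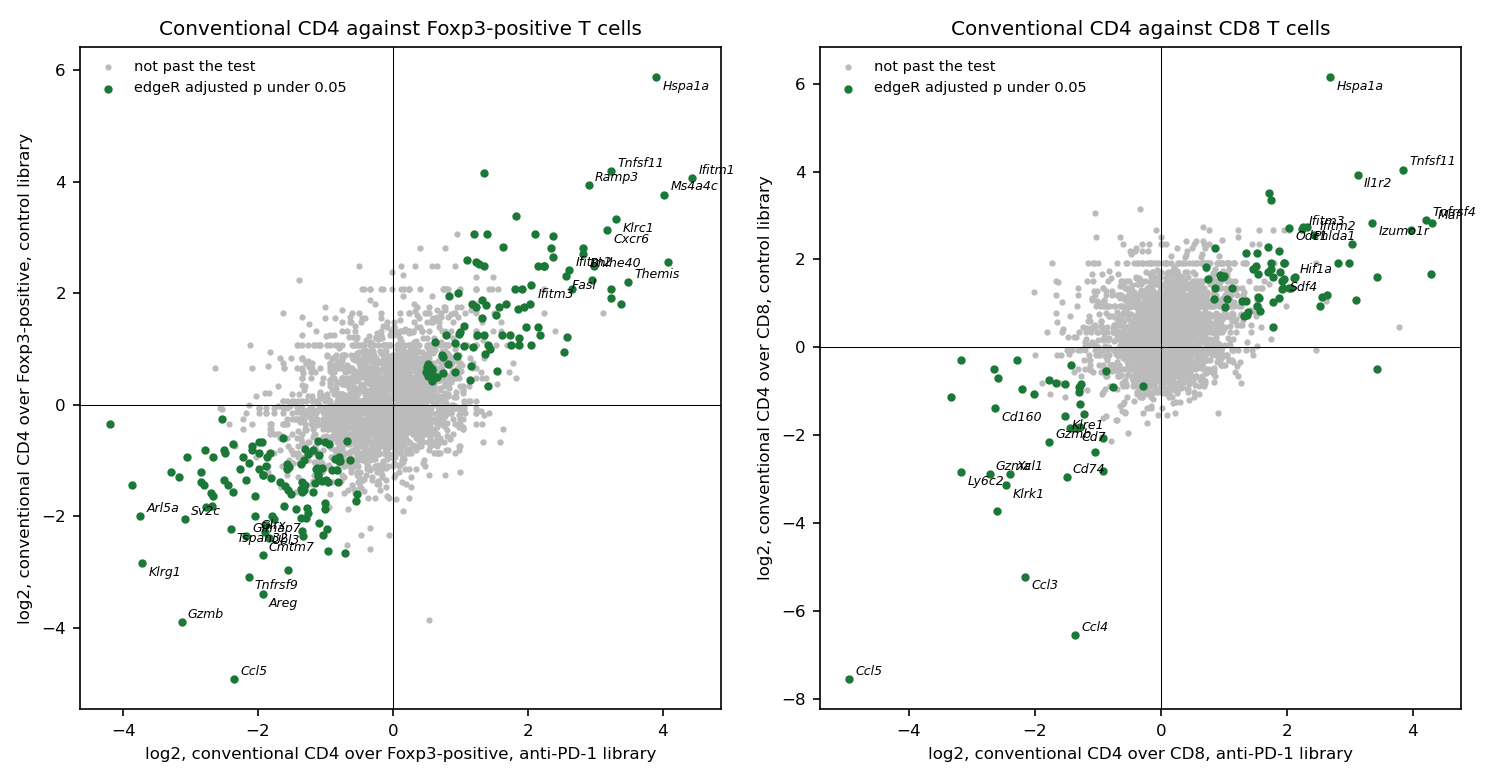
Log2 ratio of CPM of conventional CD4 over Foxp3-positive (left) and over CD8 T cells (right), in the anti-PD-1 library (x axis) and the control library (y axis), for each gene tested outside the gates. A sum under 3 UMIs was set to 3 when it was the lower one. Genes past the edgeR test (107 higher and 114 lower, and 73 higher and 38 lower) lie mostly in the corners where both libraries show the same direction.

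Among the genes higher than in CD8 cells, Tnfsf11 came first (edgeR log2 4.04, adjusted p 0.000117), with 15 UMIs in the 983 anti-PD-1 and 1 UMI in the 62 control CD8 cells. Cxcr6 was at 858 and 401 CPM in CD8 cells, so conventional CD4 cells exceeded both other classes (edgeR log2 1.06, adjusted p 0.00116). Il1r2, the decoy receptor for interleukin 1, was at 111 and 211 CPM in conventional CD4 cells, against 12.7 and 4.61 CPM in CD8 cells (log2 3.43, adjusted p 8.75e-06). Hif1a, encoding the oxygen-sensing transcription factor subunit HIF-1 alpha, was at 767 and 456 CPM, against 178 and 152 CPM in CD8 cells (log2 1.82, adjusted p 3.93e-06). Odc1, encoding the polyamine enzyme ornithine decarboxylase, was at 351 and 333 CPM, against 85.5 and 50.7 CPM (log2 2.1, adjusted p 4.24e-06). Phlda1 (log2 2.38) and Sdf4 (1.66) followed. None of Hif1a, Odc1, Phlda1 and Sdf4 was called higher than in Foxp3-positive cells, where Odc1 was called lower (edgeR log2 -0.88, adjusted p 0.0203). Cd5 and Cd6, inhibitory surface receptors of T cells, were higher than in CD8 cells by 1.42 and 1.47.

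The 3 interferon-induced transmembrane genes Ifitm1, Ifitm2 and Ifitm3, which restrict entry of viruses into cells, were higher in conventional CD4 cells than in both other classes. They lie close together on chromosome 7 (GRCm38): Ifitm1 at chr7:140967221-140969825 on the plus strand, Ifitm2 at chr7:140954837-140955987 and Ifitm3 at chr7:141009586-141010770 on the minus strand. As close paralogs, they may share reads, so the split between them is uncertain. The promoter stretches below, from RefSeq (GRCm38.p6), run from 120 bases before to 30 after the annotated start and are shown because all 3 genes were called higher in both comparisons. Capitals mark matches to GAAANNGAAA, a short form of the interferon-stimulated response element, searched on both strands with N for any base.
Ifitm1 (chr7:140967956-140968105, plus strand): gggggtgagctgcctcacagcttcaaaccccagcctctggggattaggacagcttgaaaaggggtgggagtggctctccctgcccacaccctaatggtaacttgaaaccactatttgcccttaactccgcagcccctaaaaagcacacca
Ifitm2 (chr7:140955932-140956081, minus strand): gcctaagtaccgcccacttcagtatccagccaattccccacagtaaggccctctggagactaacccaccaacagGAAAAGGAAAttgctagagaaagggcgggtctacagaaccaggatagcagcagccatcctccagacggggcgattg
Ifitm3 (chr7:141010715-141010864, minus strand): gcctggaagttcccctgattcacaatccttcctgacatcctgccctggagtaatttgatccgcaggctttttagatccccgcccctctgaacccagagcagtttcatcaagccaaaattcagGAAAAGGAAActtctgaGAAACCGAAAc
The motif matched once in the Ifitm2 stretch, at 2 places in the Ifitm3 stretch and at 0 in that of Ifitm1. Only 1 annotated start per gene was searched. The Ifitm1 stretch begins at 140967956, inside the gene span given above, which starts at 140967221. The bases before that gene start were not searched, so the 0 holds for this stretch only. Of 32851 RefSeq promoter windows (250 bases before to 50 after the start), 1131 (3.44%) hold it. A match is a string of letters and not a binding site.

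Ifitm3 was at 1071 CPM in anti-PD-1 and 1316 CPM in control conventional CD4 cells, against 258 and 297 CPM in Foxp3-positive and 226 and 203 CPM in CD8 cells. Its edgeR log2 ratios were 2.16 (adjusted p 4.96e-08) against Foxp3-positive and 2.28 (9.55e-09) against CD8 cells. Ifitm2 was at 533 and 491 CPM, against 86.9 and 92.0 CPM in Foxp3-positive and 99.2 and 82.9 CPM in CD8 cells, with ratios of 2.60 (1.76e-07) and 2.33 (2.86e-07). For these 2 genes the counting intervals of conventional CD4 cells lay above those of both other classes in each library. Ifitm1 was at 1019 CPM in anti-PD-1 and 211 CPM in control conventional CD4 cells, against 47.2 and 0 CPM in Foxp3-positive and 347 and 96.7 CPM in CD8 cells (edgeR log2 4.69, adjusted p 3.35e-10, and 1.35, 0.00177). It was detected in 15 of 69 anti-PD-1 and 3 of 19 control members, and the highest single cell held 40 of its 174 anti-PD-1 UMIs. In the control library its counting interval overlapped that of CD8 cells.

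Macrophages held more of these transcripts, with Ifitm3 at 4791 CPM in the anti-PD-1 and 3897 CPM in the control library. Without cells of any class that held a Lyz2 or Csf1r UMI, the log2 ratios of Ifitm1, Ifitm2 and Ifitm3 to Foxp3-positive cells were 6.67, 3.19 and 1.99, and those of Ifitm2 and Ifitm3 to CD8 cells 2.30 and 2.59. The wider interferon-response list, which includes the 3 Ifitm genes, was mixed against Foxp3-positive cells. Of its 30 genes 28 were tested. Against Foxp3-positive cells 8 were above 0 and 20 below, with 4 called higher and 3 lower (median log2 -0.44). Over all genes 3.38% were called higher and 3.6% lower in that comparison (median -0.0025). Against CD8 cells 19 were above 0 and 9 below, with 6 called higher and 0 lower (median 0.17). The shares over all genes there were 2.3% higher and 1.2% lower (median 0.0054). Beside the Ifitm genes, those higher were Ifit3 against Foxp3-positive cells (edgeR log2 1.47, adjusted p 0.0249) and Ifi27l2a (0.99), Iigp1 (2.17) and Ly6a (1.03) against CD8 cells. The 3 lower ones were Ifi27l2a (edgeR log2 -1.01, adjusted p 0.000665), Bst2 (-0.81, 0.0390) and Ly6e (-0.96, 0.00186).

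The helper-state lists were only in part measurable. Of 16 Th1 genes 12 were tested against Foxp3-positive cells, with 4 higher (Ifng, Il12rb2, Il18r1 and Il18rap) and 1 lower (Ccl5), and a median log2 of 0.79. Over all genes 3.38% were called higher and 3.6% lower, with a median of -0.0025. Il12rb2, a subunit of the interleukin 12 receptor, was at 158 CPM in anti-PD-1 and 70.2 CPM in control conventional CD4 cells, against 34.8 and 29.3 CPM in Foxp3-positive cells (edgeR log2 2.04, adjusted p 0.00284). Il18r1, a subunit of the interleukin 18 receptor, was at 193 and 87.7 CPM against 32.3 and 37.7 CPM (log2 2.32, adjusted p 0.000687). Tbx21, encoding the Th1 transcription factor T-bet, was at 58.6 and 123 CPM against 37.3 and 41.8 CPM, and did not pass the test (log2 1.03, adjusted p 0.303). Against CD8 cells, 1 Th1 gene was higher (Il12rb2, log2 1.82, adjusted p 0.00228) and 2 were lower, beside 2.3% higher and 1.2% lower over all genes.

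For the Th2 list 3 of 14 genes were tested, all 3 higher than in CD8 cells and 2 lower than in Foxp3-positive cells. For Areg the libraries differed: its log2 ratio to CD8 cells was 3.43 in the anti-PD-1 library and -0.49 in the control library, where members held 0 UMIs. The other 2 were Il10 and Gata3, of which Gata3 was at 129 and 105 CPM in conventional CD4 cells, against 79.5 and 87.8 CPM in Foxp3-positive and 39.5 and 32.2 CPM in CD8 cells. For the Th17 list 2 of 13 genes were tested, and edgeR called 0 in either comparison. Over all 3168 genes, 3.38% were called higher and 3.6% lower against Foxp3-positive cells, and 2.3% and 1.2% against CD8 cells. With 2 genes tested, 0 calls cannot be set apart from these shares. Of 14 follicular helper genes 4 were tested, and Cxcr5 and Il21 were at 0, while Bcl6, the defining transcription factor of that state, had 0 UMIs in anti-PD-1 and 1 in control members.

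Among naive and memory genes, Ccr7, a lymph node homing receptor, had 1 UMI in each library, and Tcf7, encoding the transcription factor TCF-1, had 4 UMIs in anti-PD-1 and 2 in control members. Bcl2, a survival gene, was at 123 and 87.7 CPM, against 17.4 and 8.37 CPM in Foxp3-positive cells (edgeR log2 3.13, adjusted p 0.000438). Of 22 residence and homing genes 19 were tested, with 4 higher and 5 lower against Foxp3-positive cells and 2 higher and 2 lower against CD8 cells. The shares over all genes were 3.38% higher and 3.6% lower against Foxp3-positive cells, and 2.3% and 1.2% against CD8 cells. Beside Cxcr6, the genes higher than in Foxp3-positive cells were the integrin subunits Itgb1 (edgeR log2 2.44, adjusted p 0.000195) and Itga4 (2.68, 0.0407) and the G-protein regulator Rgs1 (0.86, 0.00501). The lower ones were the integrin subunits Itgae and Itgb7, the chemokine receptor Ccr2, S100a6 and Crip1, with log2 ratios between -2.75 (Itgae) and -0.85 (Crip1). Of 23 hypoxia and glycolysis genes 17 were tested against CD8 cells, where 16 had log2 ratios above 0 and 2 passed the test (median 0.51), the glycolytic enzymes Pkm (log2 0.91) and Tpi1 (0.99). Against Foxp3-positive cells 2 were lower, Bnip3 (log2 -2.54) and Ddit4 (-1.81), both induced by low oxygen.

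Of 18 antigen-receptor response genes 12 were tested, with 1 higher (Tnfaip3, an inhibitor of NF-kappa-B) and 1 lower (Tnfrsf9) against Foxp3-positive cells and 0 higher and 1 lower (Nr4a2) against CD8 cells, where 10 of the 12 were above 0 (median log2 0.53). Over all genes 3.38% were higher and 3.6% lower against Foxp3-positive cells, and 2.3% and 1.2% against CD8 cells. Single calls among 12 genes are too few to set apart from these shares. Of 14 immediate early genes 11 were tested, 10 of them above 0 against CD8 cells (median 0.58, beside 0.0054 over all genes), and 3 were called higher there (2.3% over all genes), Junb (edgeR log2 0.92, adjusted p 0.00228), Dusp1 (1.13, 0.00827) and Nfkbia (1.11, 0.000889). Of 13 heat shock genes 9 were tested, and Hspa1a alone was called, higher in both comparisons, though DESeq2 did not call it against CD8 cells.

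The last comparison set anti-PD-1 against control within conventional CD4 cells, 69 cells against 19. A minimum of 10 UMIs and 50 CPM in the library with the higher level left 1655 genes, of which 141 (8.52%) were at least 2-fold higher and 38 (2.3%) at least 2-fold lower in anti-PD-1 cells. The anti-PD-1 sum is about 3 times deeper, so more genes reach 10 UMIs through it, and the median log2 ratio of the tested genes was 0.27. TMM scaling adds 0.17 to every log2 ratio and gives 210 higher and 28 lower genes. Cells thinned to 1000 UMIs gave 41 higher and 9 lower genes. With no replicates, the folds describe these 2 libraries, and differences between mice cannot be told apart from the treatment.

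Pdcd1, the gene of the antibody's target, had 61 UMIs in 30 of 69 anti-PD-1 cells (357 CPM, 273 to 459) and 10 UMIs in 4 of 19 control cells (175 CPM, 84.1 to 323). The log2 ratio was 1.03 (95% counting interval 0.050 to 2.16), and 0.36 after thinning. In Foxp3-positive cells the same ratio was 0.055 and in CD8 cells -0.17. Of the 30 anti-PD-1 cells with a Pdcd1 UMI, 30 also held Cxcr6, 28 Icos, 22 Ctla4, 14 Gzmb and 10 Ifng, and of the 4 control cells with Pdcd1, 3 held Cxcr6, 3 Icos, 4 Ctla4, 0 Gzmb and 1 Ifng. Among all 69 anti-PD-1 members, 58 held Cxcr6, 55 Icos, 39 Ctla4, 30 Gzmb and 19 Ifng. Among all 19 control members these counts were 13, 13, 11, 5 and 4. For Gzmb and Ifng the anti-PD-1 cells with Pdcd1 were thus close to all members, and no association was tested. Icos was higher by 0.96 (0.45 to 1.5), Cxcr6 by 0.46 (0.074 to 0.86) and Ifng by 1.25 (0.11 to 2.64), while the ratios of Ctla4 (-0.035, -0.57 to 0.53) and Tnfrsf4 (-0.019, -0.42 to 0.39) had intervals that include 0. The Ifng ratio was 1.37 without the highest cell of each library.

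**Figure D4:**
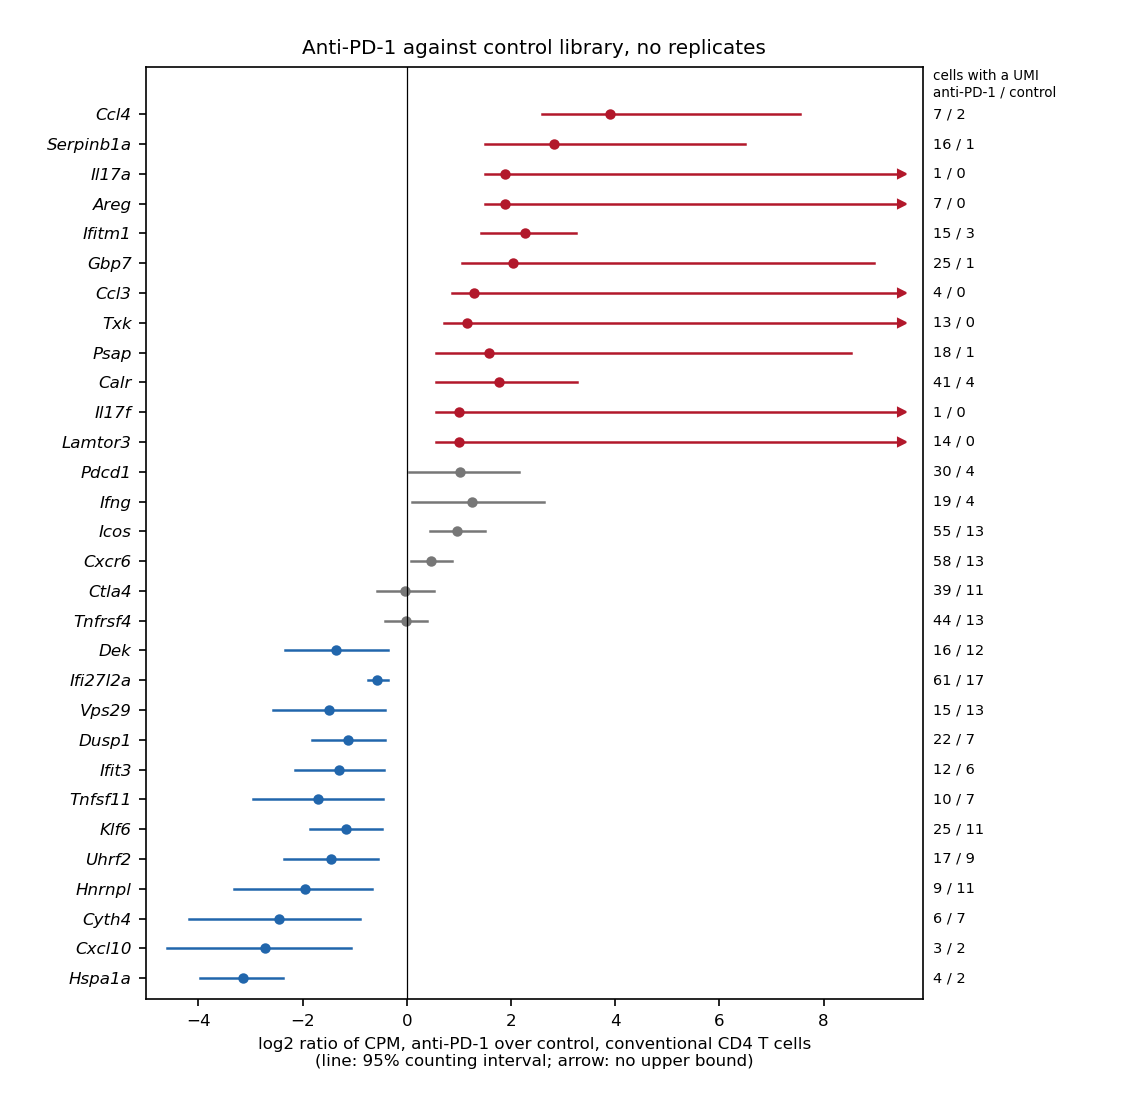
Log2 ratio of CPM, anti-PD-1 over control library, in conventional CD4 T cells for the 12 highest and 12 lowest genes by the naming rule and 6 receptors and cytokines (grey), with 95% counting intervals. Arrows mark intervals with no upper bound, a control sum under 3 UMIs was set to 3, and the numbers at the right are the cells with a UMI (anti-PD-1, then control). Ccl4 heads the higher genes at 3.90 and Hspa1a ends the lower ones at -3.14.

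Several of the genes highest in anti-PD-1 cells came from few cells. Ccl4, a chemokine that attracts T cells and monocytes, had 134 UMIs in 7 anti-PD-1 cells, 66 of them in 1 cell, and 2 UMIs in 2 control cells (log2 3.90, 2.60 to 7.54, control set to 3 UMIs). Without the highest cell of each library its log2 ratio was 2.70. Ccl3 had 22 UMIs in 4 anti-PD-1 cells and 0 in control cells, and Il17a and Il17f came from the 1 cell described above. Areg had 33 UMIs in 7 anti-PD-1 cells and 0 in control cells, a log2 ratio of 1.88 with the control set to 3 UMIs (lower counting bound 1.5). That ratio was 0.64 after thinning, 1.24 without cells holding Lyz2 or Csf1r and 1.2 without the highest cell. The ratio of Ccl3 was 0.20 without the highest cell, and that of Ccl4 was 2.36 after thinning.

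Others were spread over many cells. Serpinb1a, an inhibitor of neutrophil serine proteases, had 64 UMIs in 16 anti-PD-1 cells and 2 UMIs in 1 control cell (log2 2.83, 1.51 to 6.49). Ifitm1 had 174 UMIs in 15 anti-PD-1 cells and 12 UMIs in 3 control cells (log2 2.27, 1.43 to 3.25). Gbp7, an interferon-induced GTPase, had 37 UMIs in 25 anti-PD-1 cells and 1 UMI in 1 control cell (log2 2.04, 1.06 to 8.97). Calr, the endoplasmic reticulum chaperone calreticulin, had 61 UMIs in 41 anti-PD-1 and 6 UMIs in 4 control cells (log2 1.76, 0.56 to 3.26). Psap, the saposin precursor gene, had 27 UMIs in 18 cells against 1 UMI, Txk, a kinase of the T-cell receptor pathway, 20 UMIs in 13 cells against 0, and Lamtor3, a scaffold of lysosomal signalling, 18 UMIs in 14 cells against 0. Several of these ratios moved with the settings. After thinning, the log2 ratio was 1.46 for Serpinb1a, 0.46 for Gbp7 and 0.14 for Psap. Without cells holding Lyz2 or Csf1r it was 0.24 for Txk and 0.12 for Lamtor3, and without the highest cell it was 0.71 for Txk.

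On the lower side, Hspa1a had 19 UMIs in 4 anti-PD-1 cells and 56 UMIs in 2 control cells (log2 -3.14, -3.98 to -2.37), so 2 cells carry the control level. Tnfsf11 was lower by 1.70 on the log2 scale (log2 -1.70, -2.96 to -0.45), at 10 of 69 against 7 of 19 cells. Cxcl10, an interferon-induced chemokine, had 5 UMIs in 3 anti-PD-1 and 11 UMIs in 2 control cells. Ifi27l2a, an interferon-stimulated gene found in most cells of both libraries, was at 3981 CPM (3688 to 4292) in anti-PD-1 and 5876 CPM (5264 to 6540) in control cells (log2 -0.56). The other lower genes were the early-response genes Klf6 (log2 -1.17) and Dusp1 (-1.12), the interferon-stimulated Ifit3 (-1.30), and Cyth4, Hnrnpl, Uhrf2, Vps29 and Dek, between -2.46 and -1.36. Without cells holding Lyz2 or Csf1r the ratio was -0.21 for Klf6, 0.52 for Dusp1 and 0.14 for Ifit3. In 19 control cells, 14 of the 23 Ifit3 UMIs and 14 of the 32 Dusp1 UMIs sat in 1 cell each.

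The Th1 genes given next were set against each other between libraries without a test. Il12rb2 had 27 UMIs in anti-PD-1 and 4 UMIs in control cells, and Il18r1 had 33 and 5, with log2 ratios of 1.17 and 1.14. Tbx21 had 10 UMIs in anti-PD-1 and 7 UMIs in control cells, a log2 ratio of -1.07 (-2.61 to 0.56). That interval includes 0, and the gene did not reach 10 UMIs in control cells, where its level was higher, so its direction is not settled. Because the minimum of 10 UMIs is easier to reach in the deeper anti-PD-1 sum, counts and medians over the list members that passed it are not given for this comparison. Among interferon-response genes, Gbp7, Ifitm1, Irf1 (log2 1.96, 0.30 to 4.31) and Gbp2 (1.74, 0.42 to 3.42) were above 0 and Ifit3 and Ifi27l2a below 0. Among glycolytic genes, Gapdh had 268 UMIs in anti-PD-1 and 128 UMIs in control cells (log2 -0.52), Aldoa had 182 and 86 (-0.50), and Ldha had 197 and 57 (0.21). Ccl5 had 71 UMIs in 28 anti-PD-1 cells and 3 UMIs in 3 control cells. Its log2 ratio was 2.98 (1.38 to 5.29), and -1.24 when cells with Il2ra were admitted. Between libraries the naming rule left Ccl5 out, because free RNA would give more than the permitted share of its UMIs. The Ccl5 ratio carries that limit. The higher natural killer and neutrophil sums of the anti-PD-1 cells given above move with these genes, and their part in the differences was not tested.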

How the data were processed

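The authors deposited raw UMI counts per gene and barcode for 2 libraries, 27998 genes and 737280 barcodes each, made with Cell Ranger 2.1 on mm10, per the submitters' processing notes. The matrices held 13717817 (anti-PD-1) and 5203415 (control) UMIs. Cells were gated on raw counts. No doublet caller was run: the gates on Cd8a, Cd8b1, Lyz2 and Csf1r remove some mixed cells, and no member exceeded 3 times the class median. The members, the 27 gene lists and the markers were chosen with earlier results of these data known.

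Counts were summed per class and library. Levels carry Poisson, shares Clopper-Pearson and ratios conditional binomial 95% intervals. Where a sum was under 3 UMIs and was the lower one, it was set to 3. Class comparisons used edgeR 4.0.16 (TMM, filterByExpr, quasi-likelihood test, Benjamini-Hochberg over 3179 genes, called at 0.05), with DESeq2 1.42.0 as an alternative, in R 4.3.3. Other steps used Python 3.11.15. The code was tested on simulated data. On simulated sums with a spread set by hand, the edgeR test recovered 1.09% of 2-fold changes against CD8 and 1.64% against Foxp3-positive cells. Of 4-fold changes it recovered 76.8% and 72.7%. A class ratio near 2-fold that did not pass the test is therefore no sign of equal levels. Symbols came with the files and positions from GENCODE M21.

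Genes were named from the lists, and otherwise by a rule. Between libraries, it took the 12 in each direction with the interval bound farthest from 0 on the near side. Between classes, it took the 12 in each direction past the test, at least 2-fold the same way in both libraries and with at least 10 UMIs in the higher class, ranked by the smaller ratio. Gate, mitochondrial, ribosomal, receptor-segment and unnamed genes, and genes for which free RNA (barcodes of 10 to 50 UMIs) would give over 20% of UMIs, were left out. Alternatives changed the gates, filters, scaling and test, thinned cells to 1000 UMIs or left out single cells. A few genes are not reported here.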

Additional observations from a re-analysis of the deposited data

Results flagged for a closer look

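Among the genes named for the anti-PD-1 comparison, the helper cytokines and Pdcd1, 7 had an anti-PD-1 to control ratio in conventional CD4 cells whose counting interval lay on the other side of 0 from that in another T-cell class. Genes outside that selection were not searched, so the share of all genes with such opposite ratios is not known. None of these differences between classes was tested. The log2 ratio of Ccl4 was 3.90 in conventional CD4 cells, against -0.48 in Foxp3-positive and -1.30 in CD8 cells, with the control sum of conventional CD4 cells set to 3 UMIs. In CD8 cells the ratios were opposite for Areg (1.88 in conventional CD4 and -2.04 in CD8 cells), Ccl3 (1.29 and -1.78) and Ifng (1.25 and -0.65). Cxcl10 (-2.72 in conventional CD4 and 1.38 in CD8 cells), Ifit3 (-1.30 and 1.31) and Ifi27l2a (-0.56 and 0.25) were lower in conventional CD4 and higher in CD8 cells. In the control CD8 sum the highest single cell held 947 of 1071 Ccl4, 374 of 427 Ccl3 and 162 of 188 Ifng UMIs, and the part of such cells in these opposite directions was not tested. Some conventional CD4 ratios moved with the settings: Ifit3 was 0.14 without cells holding Lyz2 or Csf1r, Ccl3 0.20 without the highest cell and Areg 0.64 after thinning. Without the highest cell Ccl4 (2.70) and Ifng (1.37) kept their direction.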

How the results depend on the processing

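Of the recomputed counts and shares, 89 stayed close to the main value (counts within 1.5 times, shares within their interval) and 21 did not. Genes at least 2-fold higher in anti-PD-1 cells numbered 141, but 93 without cells holding Lyz2 or Csf1r and 41 after thinning. Lower ones numbered 38, but 713 with a minimum of 1 UMI, 6 with 20 UMIs and 9 after thinning. Against Foxp3-positive cells, 107 higher genes became 174 with 4 sums, 70 with a Cd4 UMI required, 52 with DESeq2, 69 with no library term and 65 against Foxp3-positive cells with Cd4 or Cd40lg (chosen after seeing the data). The 114 lower ones became 43 with DESeq2 and 72 with no library term. Against CD8 cells, 73 higher genes became 31 with DESeq2, 38 with no library term and 42 after thinning. The 38 lower ones became 16 with DESeq2, 18 with no library term, 23 with a Cd4 UMI required, 24 without cells holding Lyz2 or Csf1r, 64 with no filter and 23 after thinning. The causes were not tested.

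Of the recomputed ratios of single genes, 1497 were counted as unchanged, 46 lost the call, 5 gained one, 19 untested ones moved beyond their interval and 5 reversed. Unchanged means no change of call between classes, or a value within the counting interval between libraries. A sign change counted as reversed only for called class ratios or library ratios of at least 2-fold. The unchanged ratios therefore include some that changed sign, such as Pdcd1 against CD8 without the anti-PD-1 library (-0.27). Of list medians, 838 stayed, 62 moved and 4 reversed. With no library term, calls against CD8 were lost for Cxcr6, Icos, Gzma and Xcl1 among others. Without cells holding Lyz2 or Csf1r, Cd74 against CD8 became 0.67, and Dusp1 and Ifit3 between libraries became 0.52 and 0.14. With Il2ra allowed, Ccl5 between libraries became -1.24 and Xcl1 against CD8 0.44. List medians reversed for dendritic genes against CD8 (0.67, without cells holding Lyz2 or Csf1r), helper cytokines against CD8 (0.36, no filter) and natural killer genes against Foxp3-positive cells (0.88 without natural killer, B or dendritic transcripts, 1.09 without deep cells). Leaving out a library leaves no residual degrees of freedom and no test. No paired analysis was possible because each treatment has 1 library; this holds for the anti-PD-1 comparison, while the class comparisons have the library as a block. With 19 control members, a gene at 0 could still be at 52.6 CPM, the floor of 3 UMIs.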
